A study of Mus musculus with 2 samples.

Results

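The genes described here are those that bind zinc or move it across membranes: 4 metallothionein genes (Mt1, Mt2, Mt3 and Mt4), the zinc-sensing transcription factor gene Mtf1, the exporter genes Slc30a1 and Slc30a10, and the importer genes Slc39a8, Slc39a10 and Slc39a14. All probe sets whose single gene symbol in the platform annotation is one of these 10 names were taken, which gave 22 of the 45037 probe sets that are not controls. The names were chosen with differences between the same arrays in view, so every value below is a description and none was tested. Ovaries of PR knockout mice, which lack the progesterone receptor, were set against ovaries of wild type mice, both on a C57BL/6 background and 24 to 28 days old. Both genotypes had been given 5 IU of PMSG, a gonadotropin that drives follicle growth, and 48 h later 5 IU of hCG, which triggers ovulation. At 11 h after hCG the ovaries were removed, and 1 RNA sample per genotype was hybridized to 1 Affymetrix mouse genome array. The sources used here do not say how many mice contributed to a sample, nor which part of the receptor gene was disrupted.

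Metallothioneins are small, cysteine-rich proteins that hold zinc and copper ions. When free zinc increases in a cell, the factor MTF-1 binds metal response elements in the promoters of Mt1 and Mt2 and raises their transcription. Glucocorticoids and interleukin-6 also induce these genes in several tissues. SLC30 proteins move zinc out of the cytosol and SLC39 proteins move it in, and mouse oocytes are known to take up zinc as they mature.

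With 1 array per genotype there was no spread between animals to set a difference against, and no p-value is given. Differences are log2(PR knockout signal) minus log2(wild type signal), so a negative value means lower in the knockout. A signal was taken as measured if it reached the median of its array, 37.95 on the PR knockout and 36.2 on the wild type array, and lower signals were raised to that floor. Fold values against a floored signal are lower bounds. Where a gene had several probe sets, the brightest stood for it. The log2 differences of different probe sets of 1 gene had an SD of 0.25 over 4771 genes, which is a spread between probe sets and leaves out animals. The measured genes numbered 11316. In the knockout 195 of them (1.72%) had a signal lower by 2-fold or more, and 130 (1.15%) one higher by 2-fold or more. Without a threshold, 42.2% were lower and 57.7% higher. These 2 shares hold for the signals as deposited and depend on the scaling. The median log2 difference over all measured genes was 0.056, but -0.010 after scaling each array to a common median and 0.008 after removal of the loess trend. The 2-fold split leaned further towards lower after scaling to a common median, 225 against 94, and after removal of the loess trend, 230 against 87. The targeted gene gave no check of the labels: the brightest Pgr probe set had a signal of 42.8 on the PR knockout and 36.5 on the wild type array, and the other 2 Pgr probe sets lay under the floor on both.

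Promoter windows of Mt1 and Mt2, the members with the largest differences, are shown with those of Mt3 and Slc30a1. Slc30a1 is a known MTF-1 target whose signals were nearly equal. The sequences come from RefSeq on GRCm38.p6 and run from 250 bases before to 50 bases after the gene start, all on the plus strand. Mt1 is at chr8:94178839-94179138, Mt2 at chr8:94172368-94172667, Mt3 at chr8:94152357-94152656 and Slc30a1 at chr1:191906531-191906830. Capitals mark matches, on either strand, to the core of the metal response element (MRE), searched as TGCACNC and TGCGCNC.
Mt1: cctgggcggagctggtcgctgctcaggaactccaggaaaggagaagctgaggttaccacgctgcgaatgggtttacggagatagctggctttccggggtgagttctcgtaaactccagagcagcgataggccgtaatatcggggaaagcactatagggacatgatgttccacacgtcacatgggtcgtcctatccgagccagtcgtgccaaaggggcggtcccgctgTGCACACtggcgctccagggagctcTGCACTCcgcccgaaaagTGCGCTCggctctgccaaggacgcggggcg
Mt2: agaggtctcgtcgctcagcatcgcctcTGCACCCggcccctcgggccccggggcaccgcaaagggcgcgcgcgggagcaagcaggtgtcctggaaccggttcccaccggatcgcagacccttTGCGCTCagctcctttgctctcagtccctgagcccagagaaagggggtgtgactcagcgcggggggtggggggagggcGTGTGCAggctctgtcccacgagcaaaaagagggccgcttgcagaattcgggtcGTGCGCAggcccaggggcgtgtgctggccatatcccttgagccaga
Mt3: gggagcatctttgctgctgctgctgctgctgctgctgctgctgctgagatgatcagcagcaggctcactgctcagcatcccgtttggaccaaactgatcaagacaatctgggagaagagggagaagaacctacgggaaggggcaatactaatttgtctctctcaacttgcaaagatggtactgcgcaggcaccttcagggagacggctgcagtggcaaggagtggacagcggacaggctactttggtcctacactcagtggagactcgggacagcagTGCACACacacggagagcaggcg
Slc30a1: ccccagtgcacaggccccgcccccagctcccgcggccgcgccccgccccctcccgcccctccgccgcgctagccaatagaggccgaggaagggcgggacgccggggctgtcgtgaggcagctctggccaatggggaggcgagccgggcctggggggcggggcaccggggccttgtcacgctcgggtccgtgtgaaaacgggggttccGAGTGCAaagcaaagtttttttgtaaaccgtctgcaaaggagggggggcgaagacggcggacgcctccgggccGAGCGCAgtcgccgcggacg

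The Mt2 window held 4 MRE matches, the Mt1 window 3, the Slc30a1 window 2 and the Mt3 window 1. At least 1 match was present in 25.7% of the 32851 promoter windows of this length, at least 3 in 1.97% and at least 4 in 0.517%. The Mt1 window also held 1 match to the palindromic pattern shared by glucocorticoid and progesterone receptor elements, GNACA and TGTNC separated by 3 bases. Its letters were GGACATGATGTTC, at 94 to 82 bases before the start. This pattern was found in 0.475% of all windows and in none of the other 10 windows of the members. The Mt2 window held 1 match to the AP-1 pattern TGANTCA, found in 7.81% of windows, which overlapped a match to TGACNNNGC, a pattern of the oxidative stress factor NRF2, found in 12.4% of windows. The TATA box pattern TATAAA, found in 13.6% of windows, was matched in the Mt4 window and not in those of Mt1, Mt2 and Mt3. Windows were placed by the RefSeq gene start, and bases outside them were not searched. Whether transcripts in these ovaries begin at those starts was not tested, so the distances hold for the RefSeq starts only. A pattern not matched in a window, such as TATAAA, may lie outside it. The counts therefore belong to the windows and not to whole promoters. Windows were at hand for 9 of the 10 members, 11 in all, and Slc39a14 was not matched. A match is a run of letters and not evidence of binding.

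**Figure D1:**
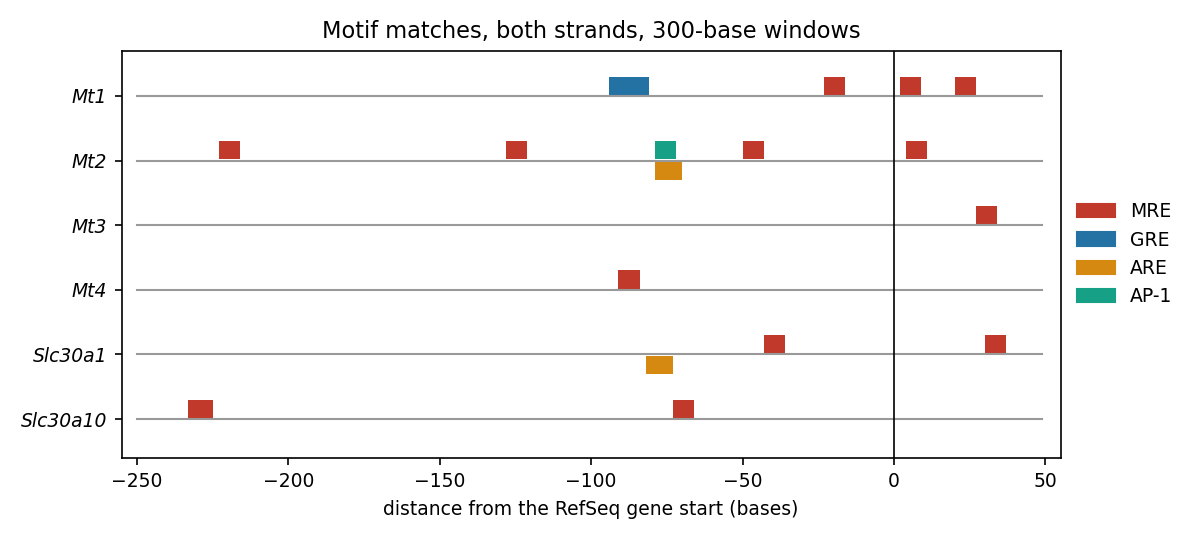
Motif matches in the promoter windows of the 4 metallothionein genes and 2 exporter genes, by distance in bases from the RefSeq gene start (black line). Boxes stand for matches to MRE, the steroid receptor pattern (GRE), the NRF2 pattern (ARE) and AP-1. Mt2 has 4 MRE boxes and Mt1 has 3. Slc30a10 has 3 matches, of which 2 overlap on opposite strands and are drawn as 1 block.

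The metallothioneins were the members with the largest differences. Mt2 had a signal of 764 in the PR knockout ovary, against 5187 in the wild type ovary. This is 6.79-fold lower in the knockout, or -2.76 on the log2 scale, and places Mt2 at rank 15 of 11316 genes ordered from the one most reduced in the knockout. The gene was bright in both genotypes, far above the floors, so its fold does not depend on a floored value.

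Mt1, the close relative of Mt2, was read by 2 probe sets that lay far apart in brightness. The brighter, whose ID ends in _s_at, had a signal of 2011 in the PR knockout ovary and 7583 in the wild type ovary, 3.77-fold lower in the knockout or -1.92 on the log2 scale, at rank 44 of 11316. Probe sets with this suffix can match more than 1 transcript, and the share of signal from related metallothionein transcripts was not tested. The dimmer had a signal of 16.9 in the PR knockout ovary, under the floor, against 200 in the wild type ovary, at least 5.26-fold lower in the knockout. With the floor at the 70th percentile of each array this bound was -0.65 on the log2 scale, so its size rests on where the floor is set. Both probe sets of Mt1 were lower in the knockout.

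Mt3, known mostly as the metallothionein of neurons, had a signal of 148 in the PR knockout ovary, against 351 in the wild type ovary. The knockout value was 2.36-fold lower, -1.24 on the log2 scale, at rank 127 of 11316. It rests on 1 probe set and was the smallest of the 3 measured metallothionein differences. Mt4, the metallothionein of stratified squamous epithelia, was under the floor in both genotypes, at 0.911 in the PR knockout and 1.81 in the wild type ovary, and no fold is given.

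**Figure D2:**
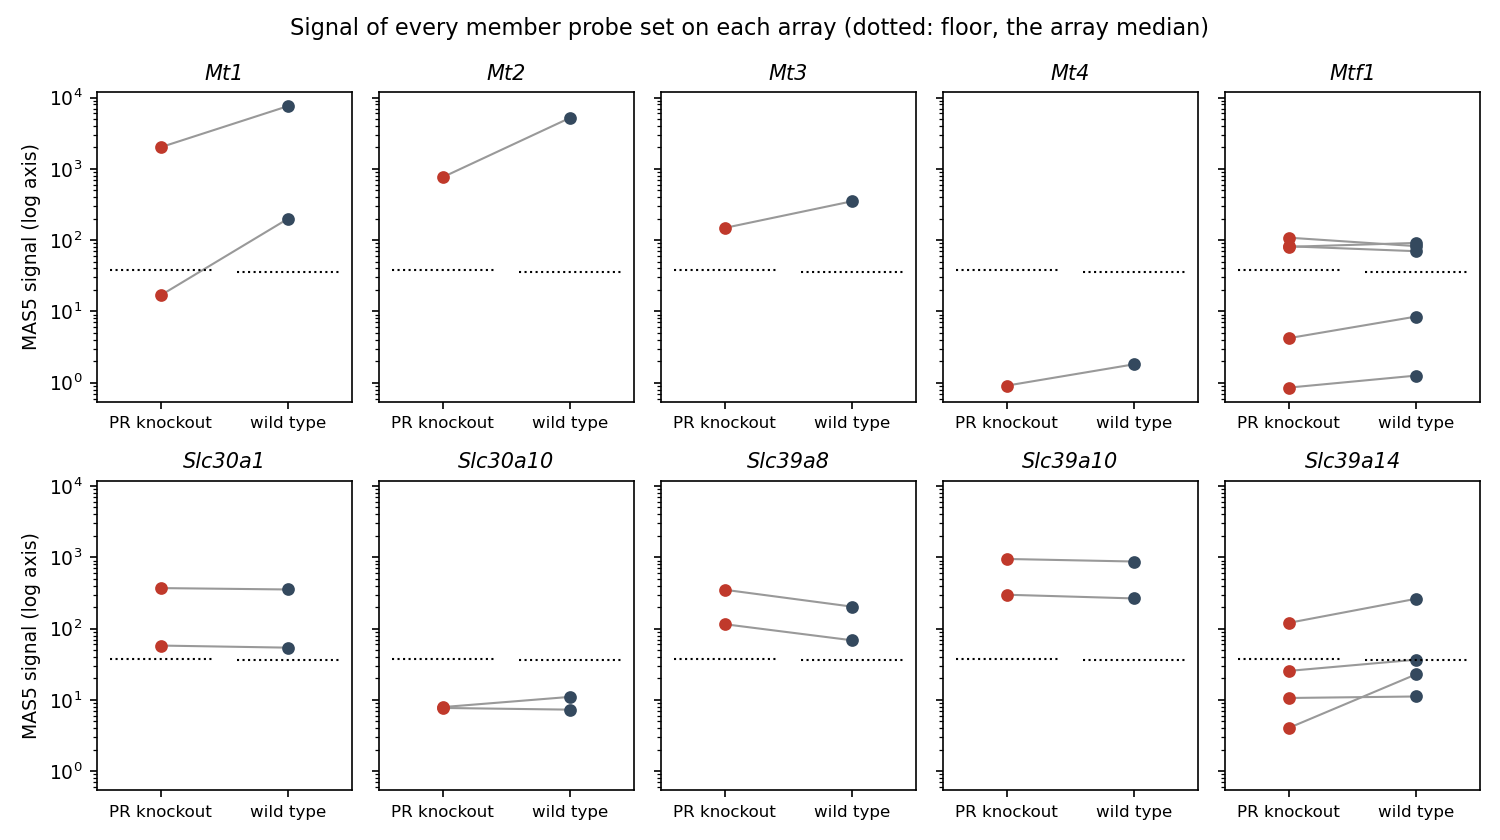
MAS5 signal (log axis) of each of the 22 member probe sets in the PR knockout (left, red) and wild type (right, dark) ovary, 1 array each, with lines joining the values of a probe set. Dotted lines are the floors, 37.95 for the PR knockout and 36.2 for the wild type. The lines of Mt1, Mt2, Mt3 and the brightest Slc39a14 probe set slope up towards the wild type, and those of Slc39a8 slope down.

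The 4 metallothionein genes lie next to each other on mouse chromosome 8, in the order Mt4, Mt3, Mt2 and Mt1 in RefSeq. The measured protein-coding genes on either side of them, read by their brightest probe sets, differed less. Bbs2, a gene of primary cilia next to Mt4, had signals of 73.2 in the PR knockout and 60.6 in the wild type ovary, a log2 difference of 0.27. Nup93, a nuclear pore gene next to Mt1, had signals of 263 in the PR knockout and 325 in the wild type ovary, a log2 difference of -0.31. Among the next genes outward, Ogfod1 was at -0.42, Nudt21 at -0.22 and Herpud1 at -0.52 on the log2 scale, while Slc12a3 was under the floor on both arrays. These neighbours were picked by position after the metallothionein values were seen. None of the 5 measured neighbours reached 2-fold. Among all measured genes 1.72% were lower and 1.15% higher by as much, so nothing is read from this count.

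Mtf1, which encodes the zinc sensor that drives metallothionein transcription, was dim in both genotypes. Its 3 measured probe sets had signals of 108, 81.9 and 80.5 in the PR knockout ovary, against 82.3, 69.9 and 91.3 in the wild type ovary. The log2 differences were 0.39, 0.23 and -0.18, which disagree in sign, so no direction is given for the gene. The remaining 2 Mtf1 probe sets were under the floor on both arrays.

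The exporter gene Slc30a1, whose product carries zinc out of the cell, had nearly equal signals in the genotypes. Its brighter probe set gave 370 in the PR knockout and 354 in the wild type ovary, and its dimmer one 57.8 in the PR knockout and 54.1 in the wild type ovary. The log2 differences were 0.06 and 0.10, and the first went to -0.00173 when the arrays were scaled to a common median. Slc30a10, which encodes a manganese exporter of the same family, was under the floor on both arrays: its 2 probe sets gave 7.93 and 7.72 in the PR knockout ovary and 11.03 and 7.30 in the wild type ovary.

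The importer genes among the members went in different directions. Slc39a14, whose product imports zinc, iron and manganese and is known to be induced by interleukin-6 in mouse liver, had a signal of 120 in the PR knockout ovary, against 262 in the wild type ovary, by its brightest probe set. This was 2.18-fold lower in the knockout, -1.12 on the log2 scale, at rank 159 of 11316. The call rests on that probe set alone: a second one gave 25.5 in the PR knockout and 36.7 in the wild type ovary, too close to the floors for a fold, and the other 2 were under the floor on both arrays. Averaging in that second probe set, at a value set by the floors, gave Slc39a14 a log2 difference of -0.54.

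Slc39a8, whose product imports zinc, manganese and cadmium, was the member with the largest difference in the opposite direction. Its probe sets gave 350 and 115 in the PR knockout ovary, against 203 and 68.6 in the wild type ovary. Both were higher in the knockout by similar amounts, 1.72-fold and 1.68-fold, or 0.79 and 0.75 on the log2 scale. Of all measured genes 2.70% were higher by as much or more, and Slc39a8 did not reach 2-fold. Slc39a10, one of the importers known to act in zinc uptake by mouse oocytes, had signals of 948 and 299 in the PR knockout ovary and 873 and 265 in the wild type ovary, with log2 differences of 0.12 and 0.17.

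**Figure D3:**
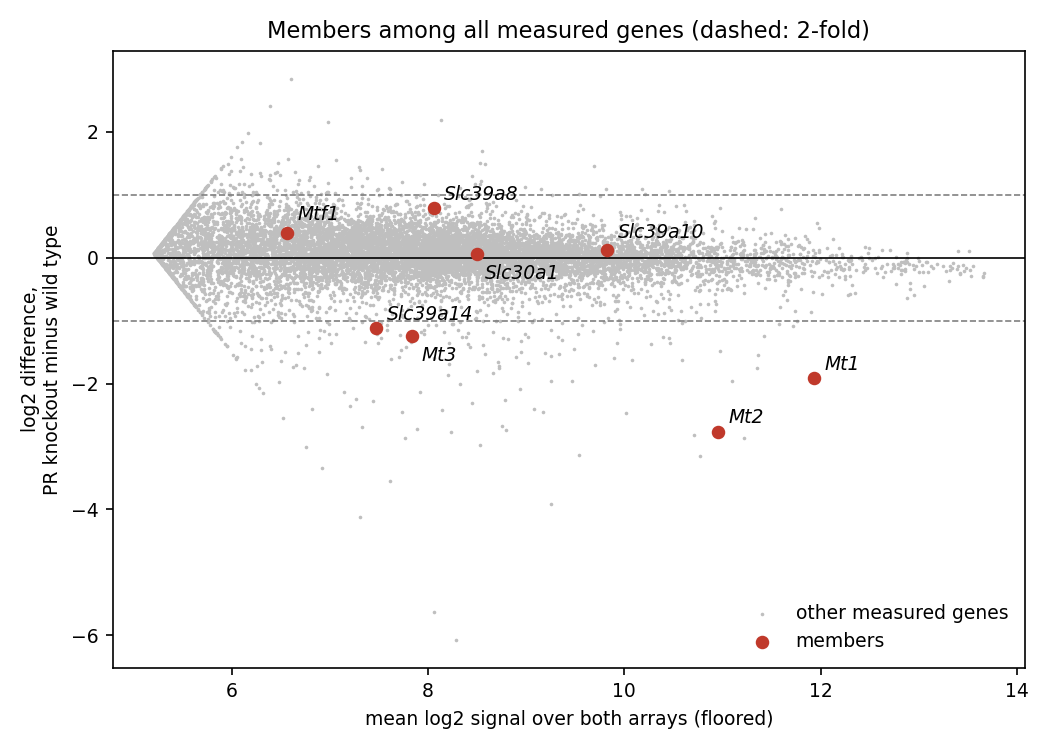
Log2 difference (PR knockout minus wild type) against mean log2 signal over both arrays for 11316 measured genes (grey) and the 8 measured members (red). Mt1 and Mt2 lie at high signal and below the lower 2-fold line, Mt3 and Slc39a14 lie below it at moderate signal, and Slc39a8, Slc39a10, Slc30a1 and Mtf1 lie between the lines.

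Of the 10 members, 8 had a measured probe set, and 4 of these were at least 2-fold lower in the knockout (Mt1, Mt2, Mt3 and Slc39a14) beside 1.72% of all measured genes, while 0 were at least 2-fold higher beside 1.15%. Since the members were chosen with this contrast in view, nothing is read from these counts. Counted by probe set, 14 had a log2 difference, of which 5 were at least 2-fold lower beside 1.67% of single-symbol probe sets, and 0 at least 2-fold higher beside 1.06%. At a threshold of 1.5-fold 4 members were lower beside 4.75% of all measured genes and 1, Slc39a8, was higher beside 6.54%. At 3-fold 2 members, Mt1 and Mt2, were lower beside 0.619% and 0 were higher beside 0.0884%. Among genes with a signal of 1000 or more on the brighter array, which Mt1 and Mt2 belong to, 48 of 1370 (3.5%) were at least 2-fold lower in the knockout. The genes whose pair of log2 signals lay nearest to that of Mt2 were the transcription factor gene Egr1 (distance 0.29 on the log2 scale), the progesterone-inactivating enzyme gene Akr1c18 (0.35), the EGF receptor inhibitor gene Errfi1 (0.37) and the protease gene Adamts1 (0.39). For Mt1 the nearest were farther away, Mrap at 0.66, Slc25a30 at 0.69, Timp1 at 0.75 and S100a10 at 0.79. For Slc39a14 they were Lepr at 0.036, Ak4 at 0.056, Zdhhc12 at 0.062 and the keratin gene Krt18 at 0.088. These are distances between signals of different probe sets on 2 arrays, and since probe sets differ in brightness for the same amount of RNA, they do not show that transcript levels were alike.

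The rest of both transporter families differed little between the genotypes. Of the 10 SLC30 exporter genes 7 were measured, of which 4 were higher and 3 lower in the knockout. None of the 7 reached 2-fold, and their median log2 difference was 0.05. The sign of this median turned when the arrays were scaled to a common median, where it was -0.02, and also with both other floors and with the mean over probe sets. The measured exporter gene farthest from equality was Slc30a5, whose product loads zinc into the early secretory pathway. It had signals of 428 in the PR knockout and 516 in the wild type ovary, -0.27 on the log2 scale. Of the 14 SLC39 importer genes 10 were measured, 6 higher and 4 lower, with a median of 0.12, and Slc39a14 was the single one past 2-fold. This median was -0.015 once probe sets with several possible targets were left out. The splits of both families are near the 57.7% higher and 42.2% lower of all measured genes, of which 1.72% were at least 2-fold lower.

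After Slc39a14 and Slc39a8, the importer genes farthest from equality were Slc39a1, with signals of 419 in the PR knockout and 615 in the wild type ovary (-0.55 on the log2 scale), and Slc39a11, with 261 in the PR knockout and 192 in the wild type ovary (0.44). The oocyte importer gene Slc39a6 had signals of 691 in the PR knockout and 796 in the wild type ovary, -0.20 on the log2 scale. Of the 17 measured genes of both families, 15 lay within 1.5-fold, beside 88.7% of all measured genes, a share near that background. The median over all measured genes was 0.06.

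**Figure D4:**
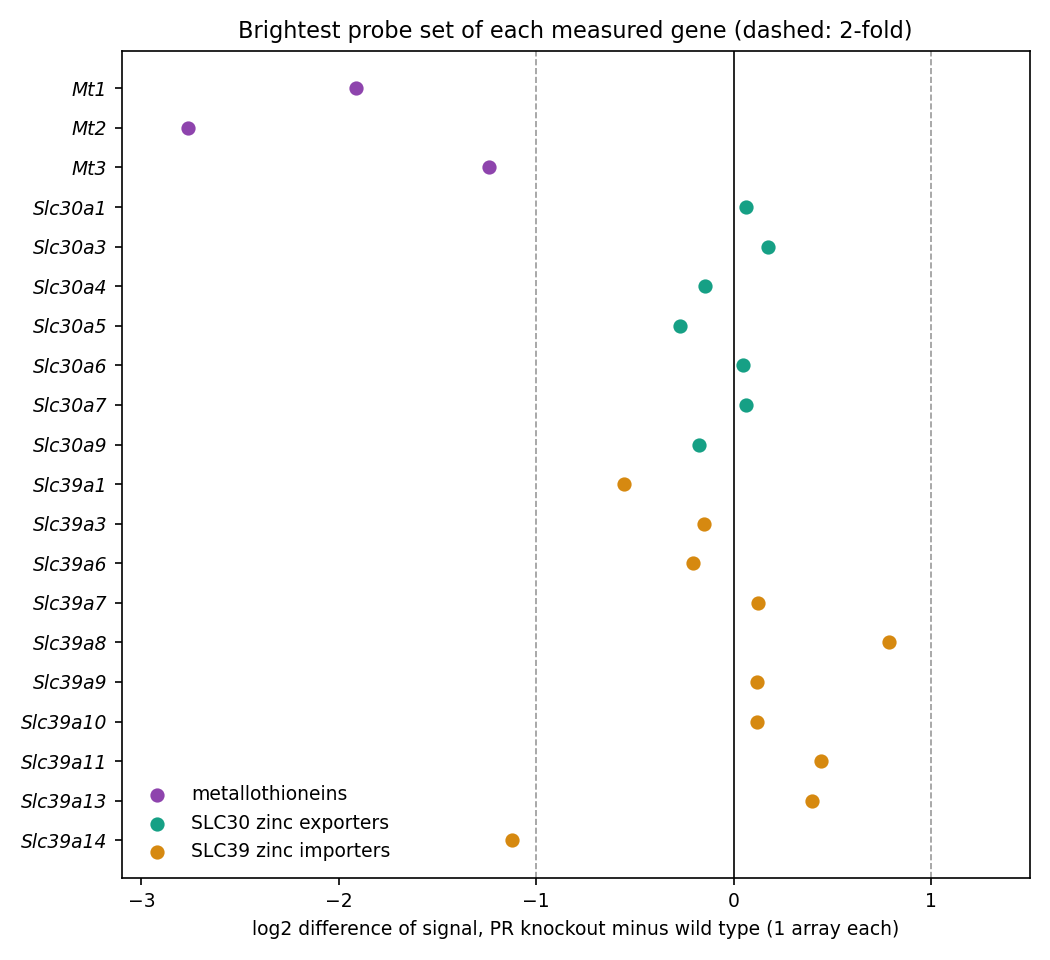
Log2 difference of signal (PR knockout minus wild type) by the brightest probe set of each measured metallothionein, SLC30 and SLC39 gene, 1 array per genotype. The 3 metallothioneins and Slc39a14 lie left of the lower 2-fold line, Slc39a8 lies at 0.79, and the other transporter genes lie between -0.55 and 0.44.

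Other reported targets of MTF-1 had no common direction. With Mtf1 itself the list held 10 genes, of which 8 were measured, 5 higher and 3 lower in the knockout, and their median was 0.09. That split is near the 57.7% higher and 42.2% lower among all measured genes, and nothing is read from it. The list was not divided by whether MTF-1 raises or lowers a gene, so it is no measure of MTF-1 activity. The single gene past 2-fold was Ndrg1, beside 1.72% of all measured genes lower by 2-fold or more. Ndrg1, a stress- and hypoxia-responsive gene, was at 191 in the PR knockout and 434 in the wild type ovary, or 2.27-fold lower. Its 5 probe sets lay between -1.18 and -0.80 on the log2 scale. Gclc, the catalytic subunit gene of glutathione synthesis, was at 666 in the PR knockout and 1114 in the wild type ovary, -0.74 on the log2 scale. Cebpa was at -0.49 on the log2 scale. Mtf1 is counted among the higher genes by its brightest probe set, although its probe sets disagree in sign, and the mean over them was 0.15.

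Genes of the interleukin-6 and STAT3 pathway, a known route of metallothionein and Slc39a14 induction, had mostly lower signals in the knockout. Of 21 genes 19 were measured, 16 lower and 3 higher in the knockout. Past 2-fold there were 9 lower and 0 higher, and the median was -0.95. Over all measured genes 42.2% were lower by any amount, 1.72% were lower by 2-fold or more and 1.15% higher by 2-fold or more. This list and the one that follows were drawn up with the large differences of these arrays already known, and their direction is not independent evidence. Il6 itself had a signal of 14.1 in the PR knockout ovary, under the floor, against 661 in the wild type ovary, at least 17.4-fold lower. Junb, a transcription factor gene, had signals of 116 in the PR knockout and 788 in the wild type ovary, 6.81-fold lower. Socs3, a feedback inhibitor of the pathway, had 172 in the PR knockout and 1147 in the wild type ovary, 6.68-fold lower. Cebpd, a transcription factor gene, was 5.36-fold lower by its brightest probe set, at 122 in the PR knockout and 654 in the wild type ovary, but its other probe set gave -0.0048 on the log2 scale.

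Glucocorticoid-inducible genes, chosen because glucocorticoids induce Mt1 and Mt2, were mixed in size. All 12 were measured, 10 lower and 2 higher, with 4 at least 2-fold lower and a median of -0.49, beside 42.2% of all measured genes lower by any amount and 1.72% by 2-fold or more. The 4 were Errfi1, at 886 in the PR knockout and 6420 in the wild type ovary, Cebpd, Zbtb16, at 116 in the PR knockout and 505 in the wild type ovary, and Tsc22d3, at 276 in the PR knockout and 820 in the wild type ovary. The probe sets of Zbtb16 ran from -2.13 to -0.47 and those of Tsc22d3 from -1.57 to -0.22 on the log2 scale. The glucocorticoid receptor gene Nr3c1 had signals of 274 in the PR knockout and 245 in the wild type ovary by its brightest probe set (0.16 on the log2 scale). Its 4 measured probe sets ran from 0.16 to 0.69. Hsd11b2, whose product inactivates glucocorticoids, was 1.99-fold higher in the knockout, at 511 against 257 in the wild type ovary. Hsd11b1, whose product activates them, was dim and 1.78-fold lower, at 45.2 in the PR knockout and 80.6 in the wild type ovary.

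**Figure D5:**
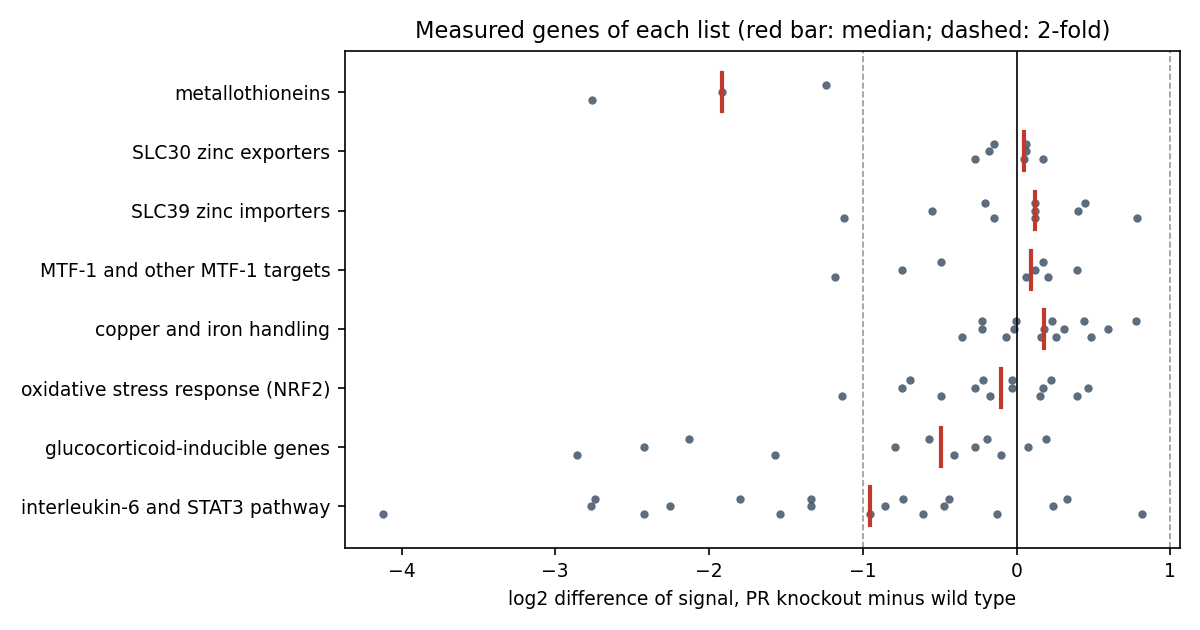
Log2 difference (PR knockout minus wild type) of the measured genes of 8 lists, 1 point per gene with a red bar at the median. The metallothionein median is -1.92 and that of the interleukin-6 and STAT3 list -0.95, while the transporter and copper and iron lists have medians from 0.05 to 0.18.

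The makeup of the samples was described with marker genes. In whole ovaries, fewer cells of a type and less RNA per cell cannot be told apart. The marker counts stand beside 42.2% lower and 57.7% higher among all measured genes. Past 2-fold these shares were 1.72% lower and 1.15% higher. All 5 surface epithelium markers were lower in the knockout, with a summed signal of 665 in the PR knockout and 1115 in the wild type ovary, and Krt8 and Krt18 were at least 2-fold lower. Of 6 granulosa cell markers 5 were higher in the knockout, with a summed signal of 14067 in the PR knockout and 13251 in the wild type ovary and a median log2 difference of 0.27. Endothelial markers had a median of 0.29, stroma markers of 0.28 and smooth muscle markers of -0.21, and the 6 oocyte markers lay between 0.0063 and 0.25. The 3 genes listed for theca that were on the array had a median of -0.47. They were Cyp17a1 at -0.47, Star at -0.55 and Hsd3b1 at 0.11, and whether they are particular to theca cells here was not tested. Among stroma markers Tcf21 was 2.76-fold higher in the knockout, at 1373 in the PR knockout and 498 in the wild type ovary, and Pdgfra was at -0.41 on the log2 scale. Of 7 leukocyte markers 4 were measured, 2 higher and 2 lower in the knockout, with a median log2 difference of 0.04. Their summed signal was 586 in the PR knockout and 488 in the wild type ovary, a gap that lay in Csf1r, at 380 in the PR knockout and 277 in the wild type ovary, while Ptprc was at -0.20 and Cd68 at -0.19 on the log2 scale. The neutrophil genes S100a8 and S100a9 were under the floor on both arrays. The oviduct and adipocyte markers on the array, 3 of each, were also under the floor on both arrays. The part of these differences in the metallothionein and transporter values was not tested.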

How the data were processed

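RNA of 1 PR knockout and 1 wild type ovary sample was measured on 1 array each. Per the labels' protocols, 100 ng of total RNA gave biotin-labelled antisense RNA by a 3′ kit of Affymetrix. The authors deposited 1 linear intensity (signal) per probe set, computed with MAS5 and Affymetrix Expression Console version 1, per the submitters' processing notes. The mean after trimming 2% at each end was 150 on both arrays, so they share a scaling target. MAS5 subtracts mismatch probes, which makes low signals noisy. Detection calls were not used here.

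The 64 control probe sets were left out. Of the rest 34945 had 1 gene symbol, 932 several and 9160 none. Gene IDs of 34741 were found in the RefSeq table of GRCm38.p6, which left 0 symbols changed. Each of 18193 genes was represented by its brightest probe set. The number of arrays limits the precision. Any batch would coincide with genotype, so the 2 cannot be told apart. The members and gene lists were chosen with earlier results of these data known. The naming rule took the members, Pgr, the 4 largest differences of each pathway list and the 4 nearest genes to Mt2, Mt1 and Slc39a14, and allowed any transporter. The cell type markers and the neighbours on chromosome 8 that are named fall outside it. The markers to name were chosen after their values were seen, and the neighbours by position after the metallothionein values were seen. Alternatives were 3 other scalings, 2 other floors, an offset, the mean over probe sets, other fold thresholds and leaving out probe sets with several possible targets. The calculation was tested on simulated data in which only genes well above the floors on both arrays were changed. The noise added was smaller than the spread between probe sets, so that test does not cover dim genes. Python 3.11.15, pandas 2.3.3 and statsmodels 0.14.6 were used.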

Additional observations from a re-analysis of the deposited data

How the results depend on the processing

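Mt2 had a log2 difference between -2.83 and -2.71 over the 9 settings run, Mt1 between -2.40 and -1.79, Mt3 between -1.32 and -1.09 and Slc39a8 between 0.70 and 0.79. Mt1 went to -2.40, and the metallothionein median with it, when probe sets with several possible targets were left out, since the dimmer probe set with a floored knockout signal then stood for the gene. Without a floor the metallothionein median was -1.58, because Mt4 then counted. Slc39a14 lay between -1.22 and -0.54, with -0.54 as the mean over probe sets, 1 of them at a value set by the floors. At least 2-fold lower members numbered 4, except for 3 with the offset and with the mean over probe sets. At 3-fold there were 2, and at 1.5-fold 1 member was higher. Counts over all genes at least 2-fold lower went to 128 with the 70th-percentile floor and 1907 with no floor, and were 538 at 1.5-fold and 70 at 3-fold. Those higher went to 35 with the 70th-percentile floor, 1447 with no floor and 36 with the offset, and were 740 at 1.5-fold and 10 at 3-fold. No member past 2-fold changed sign under these settings, which were run for the members and the list medians and not for other single genes. Signals near the floor limit what can be said of Mt4, Slc30a10, Mtf1 and most Slc39a14 probe sets. No paired analysis was possible because each genotype has 1 array.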

Other observations

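Genes that handle copper, which metallothioneins also bind, and iron, which Slc39a14 also carries, went in both directions. Of 18 listed genes 15 were measured, 9 higher and 6 lower in the knockout. This is near the 57.7% higher and 42.2% lower of all measured genes. None of the 15 reached 2-fold with floored signals, beside 1.72% lower and 1.15% higher by as much among all measured genes. The median log2 difference was 0.18. The largest was Steap3, a metal reductase gene, at least 1.71-fold higher. Its signal was 62.0 in the PR knockout ovary and under the floor, at 29.3, in the wild type ovary. The iron oxidase gene Heph had signals of 1067 in the PR knockout and 707 in the wild type ovary, the iron exporter gene Slc40a1 464 in the PR knockout and 332 in the wild type ovary, and the copper-carrying protein gene Cp 199 in the PR knockout and 147 in the wild type ovary. The Cp probe sets ran from 0.04 to 0.98 on the log2 scale. Of 14 measured genes of the oxidative stress response 9 were lower and 5 higher, with a median of -0.10, beside 42.2% of all measured genes lower. Slc7a11, a cystine transporter gene, was at least 2.20-fold lower, at 19.0, under the floor, in the PR knockout and 83.5 in the wild type ovary. Srxn1, an antioxidant enzyme gene, had signals of 319 in the PR knockout and 516 in the wild type ovary, and the glutathione reductase gene Gsr 256 in the PR knockout and 359 in the wild type ovary.

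Measured genes were also split by the number of MRE matches in their promoter windows. Of 92 measured genes with 4 or more matches, 1 (1.09%) was at least 2-fold lower in the knockout, which was Mt2. Another 2 (2.17%) were at least 2-fold higher. Among all 9180 measured genes with a window, the shares past 2-fold were 1.63% lower and 1.05% higher. Of 266 genes with 3 matches, Mt1 among them, 3 were lower and 4 higher by 2-fold or more. This split was made after the metallothionein values were seen.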
